A study of Mus musculus with 14 samples.

Results

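A set of 10 genes of the RGS family, the regulators of G protein signalling, were read out in 14 single cells labelled as mesangial cells of the kidney glomerulus. The 10 genes, Rgs2, Rgs3, Rgs4, Rgs5, Rgs7, Rgs10, Rgs12, Rgs14, Rgs16 and Rgs19, were taken by name from a table of 35271 genes, and all 10 had a row in it. The cells came from 1 wild-type male mouse of the C57BL/6 strain, aged 8 weeks. Glomeruli were collected with magnetic beads and dissociated with enzymes, and the cells were captured on a Fluidigm C1 instrument, where each is lysed and its cDNA made in a chamber of its own. There is 1 group, with no treatment and no control animal, so no groups were compared and no test was run. The cells share 1 animal and are not biological replicates.

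RGS proteins switch off signals from G protein coupled receptors. Such a receptor loads GTP onto a G protein alpha subunit, and the RGS domain speeds the hydrolysis of that GTP, which ends the signal. The family falls into classes: R4 proteins are small and consist of little more than the RGS domain, R7 proteins pair with the beta subunit Gnb5, R12 proteins act mainly on Gi-class subunits, and RZ proteins on Gi and Gz. Mesangial cells contract in response to angiotensin II and other agonists of Gq-coupled receptors, and Rgs2 is known as a preferred inhibitor of Gq.

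Levels are given as the RPKM the authors deposited, in which a gene's reads are scaled to its length and to the depth of the cell. Below, a gene is detected where it reaches an RPKM of 1 and clearly present where it reaches 10. The table holds no read totals, but they could be recovered from the steps between low values, and they ran from 6.6 M to 23.8 M reads per cell. At these totals 3 reads on 1 kb of transcript equal an RPKM of 0.126 to 0.455. Cells had 1770 to 5277 detected genes. Of 9 mesangial markers 8 were detected, with Gata3 and Serpine2 clearly present in all 14 cells, while Tbx18 was listed at 0 throughout. GL_M_30 stood apart with 10 of 13 endothelial markers clearly present (summed RPKM 4128), against 0 to 5 in the other cells. Not detected in GL_M_30 were Esam at 0, Sox17 at 0.0338 and Pecam1 at 0.159. GL_M_55 had 5 of 12 podocyte markers clearly present (summed RPKM 2178, with Nphs1, Ptpro, Clic3 and Mme among those at 0), against 0 to 3 in the other cells. Smooth muscle markers were low, with 1 of 7, Smtn, above an RPKM of 10 in any cell. Of the 2 renin cell markers, Ren1 was listed at 0 in every cell. The other, Akr1b7, was at 28.1 in GL_M_6, 1.54 in GL_M_75, 2.59 in GL_M_85 and 3.04 in GL_M_91.

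The promoters of Rgs2, Rgs5 and Rgs4 are shown because these are the widespread member, the member that was present in part of the cells, and the silent neighbour of Rgs5. Each is the 250 bases before the RefSeq start on GRCm38.p6, read 5′ to 3′ on the gene's strand. Capitals mark matches, on either strand, to TATAAA (the TATA box), CCAAT (read by NF-Y), GGGCGG (read by Sp1), TGACGTCA (the cAMP response element), GATAAG (read by GATA factors), CACGTG (an E-box) or the CArG box of serum response factor; no matches overlap. Rgs2 lies at chr1:144004150-144004399 on the minus strand, Rgs5 at chr1:169655251-169655500 on the plus strand and Rgs4 at chr1:169747643-169747892 on the minus strand.
Rgs2: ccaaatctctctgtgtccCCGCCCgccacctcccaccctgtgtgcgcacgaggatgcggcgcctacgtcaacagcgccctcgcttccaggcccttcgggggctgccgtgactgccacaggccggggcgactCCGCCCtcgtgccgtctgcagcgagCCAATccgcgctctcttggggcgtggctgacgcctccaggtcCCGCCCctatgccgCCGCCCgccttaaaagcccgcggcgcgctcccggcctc
Rgs5: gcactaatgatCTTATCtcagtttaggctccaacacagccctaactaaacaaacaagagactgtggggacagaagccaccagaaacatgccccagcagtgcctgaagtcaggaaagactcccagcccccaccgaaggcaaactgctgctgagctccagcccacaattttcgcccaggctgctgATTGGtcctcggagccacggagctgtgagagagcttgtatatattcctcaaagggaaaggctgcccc
Rgs4: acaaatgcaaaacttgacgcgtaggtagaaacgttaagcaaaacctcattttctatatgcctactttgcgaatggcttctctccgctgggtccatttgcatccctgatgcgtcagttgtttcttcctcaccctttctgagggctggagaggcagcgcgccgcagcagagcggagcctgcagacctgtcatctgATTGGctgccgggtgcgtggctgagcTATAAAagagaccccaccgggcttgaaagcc

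The Rgs2 window holds 30 CG dinucleotides, more than 94.1% of the 32851 promoters in the RefSeq table, with 4 matches to GGGCGG and 1 to CCAAT. The Rgs5 window holds 4 CG, more than 37.8% of promoters, with 1 match each to CCAAT and GATAAG. The Rgs4 window holds 13 CG and matches TATAAA at bases -31 to -26 and CCAAT. Among all promoters, GGGCGG occurs in 32.7%, CCAAT in 33.8%, TATAAA in 12.4%, GATAAG in 6.55%, CACGTG in 6.02%, TGACGTCA in 1.55% and the CArG box in 1.47%. A match describes letters in this window and is not evidence of a bound factor.

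Of the 10 members, 5 were detected in at least 1 cell, where 29.2% of all genes in the table were. The same 5 were clearly present in at least 1 cell, against 22.3% of all genes. Rgs2, Rgs3 and Rgs5 reached that level in 4 or more cells, which 7.14% of all genes did. Rgs7, Rgs14, Rgs16 and Rgs19 were listed at 0 in all 14 cells, as were 57.1% of all genes. The median over members of a gene's median RPKM was 0, as it was over all genes.

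**Figure D1:**
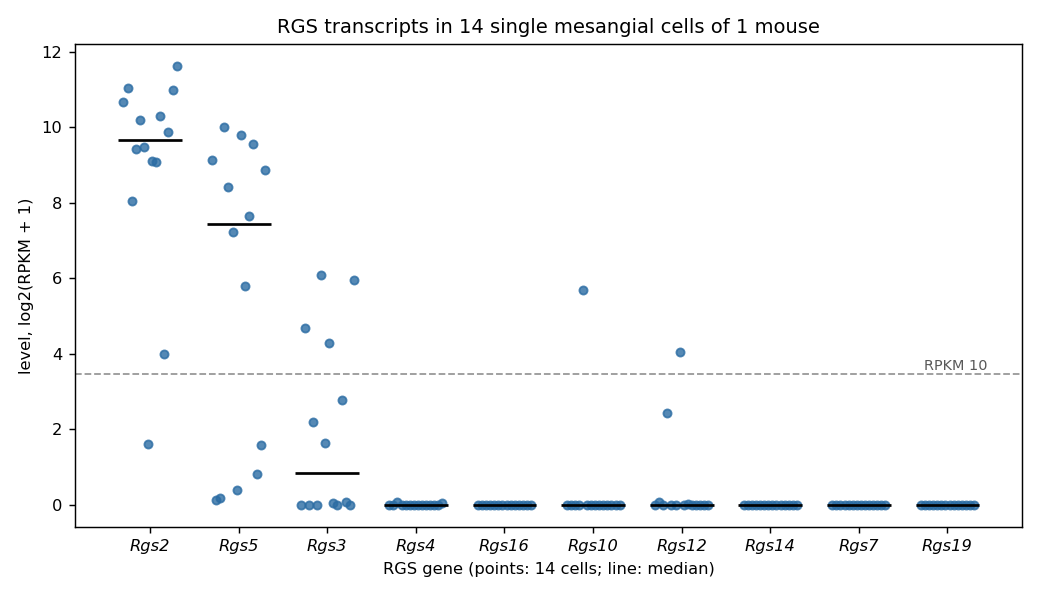
Levels of the 10 RGS genes on a log2(RPKM + 1) axis, 1 point per cell of 14 and a line at the median; the dashed line marks an RPKM of 10. Rgs2 lies above the line in 13 cells and Rgs5 in 9, with an empty range between 2 and 54.1 RPKM for Rgs5, while 5 genes stay on the floor.

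Rgs2 was the highest and most widespread member. It was clearly present in 13 of 14 cells (exact 95% Clopper-Pearson interval 66.1% to 99.8%), as were 0.411% of all genes in 13 or more cells. Its RPKM was 1639 in GL_M_6, 2110 in GL_M_11, 261 in GL_M_29, 683 in GL_M_30, 1163 in GL_M_36, 708 in GL_M_47 and 2.05 in GL_M_51. It was 546 in GL_M_55, 543 in GL_M_60, 1259 in GL_M_65, 14.8 in GL_M_75, 938 in GL_M_85, 2029 in GL_M_94 and 3154 in GL_M_91. GL_M_51 and GL_M_75 were thus far below the others, of which 261 was the lowest. These low values rest on 49 reads in GL_M_51 and 123 reads in GL_M_75. The mean log2(RPKM + 1) was 8.96 ± 2.81 (SD over 14 cells of 1 mouse). By its median of 823, Rgs2 was 54th of all 35271 genes.

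Rgs5, an R4 member known as a marker of pericytes and other mural cells, was present in part of the cells with an empty range between them. It was clearly present in 9 of 14 cells (35.1% to 87.2%), as were 1.77% of all genes in 9 or more cells. The RPKM was 562 in GL_M_6, 1031 in GL_M_30, 342 in GL_M_36, 149 in GL_M_47, 893 in GL_M_55, 54.1 in GL_M_60, 199 in GL_M_65, 749 in GL_M_75 and 470 in GL_M_91. It was 0.103 in GL_M_11, 0.135 in GL_M_29, 0.305 in GL_M_51, 0.769 in GL_M_85 and 2 in GL_M_94. The lowest of the 9 was 27-fold above the highest of the other 5, and no cell lay between. The 5 low values correspond to 2, 3, 14, 19 and 37 reads, or 0.01% to 0.194% of the level in GL_M_30. Whether these few reads come from the cells themselves was not tested. The median over all cells was 174.

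The 2 highest Rgs5 values belonged to GL_M_30 and GL_M_55, the cells with the most endothelial and podocyte markers. The next, 749 in GL_M_75, came with 4 of 13 endothelial and 1 of 12 podocyte markers clearly present. Without GL_M_30 and GL_M_55, Rgs5 was clearly present in 7 of 12 cells. Over the 14 cells its Pearson r with the mean log2 level was 0.22 for the endothelial, 0.27 for the podocyte and 0.38 for the pericyte list, from which Rgs5 itself was left out. The endothelial value was -0.01 without GL_M_30 and the podocyte value 0.04 without GL_M_55. Of the 7 pericyte markers Kcnj8, Higd1b and Anpep were at 0 in every cell, and the list's summed RPKM ran from 0.397 in GL_M_51 to 469 in GL_M_60. The part of other cell types' RNA in the Rgs5 levels was not tested.

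Rgs3, an R4 member that acts on Gi and Gq subunits, was clearly present in 4 cells (8.39% to 58.1%). Its RPKM was 24.7 in GL_M_11, 67.4 in GL_M_47, 18.4 in GL_M_55 and 61.3 in GL_M_91. It was 3.58 in GL_M_30, 2.1 in GL_M_51 and 5.84 in GL_M_75, which are 77 to 91 reads. In GL_M_60 and GL_M_85 it rested on 2 reads and 1 read, and in the other 5 cells it was listed at 0. Of the 50-base words in its transcripts 11.4% also occur in Gm5763, so its level is less certain than those of Rgs2 and Rgs5, which share none with another gene.

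Rgs4 and Rgs16, the remaining R4 members, were not detected. Rgs4 had a single read in GL_M_29 and another in GL_M_91, an RPKM of 0.052 at most, and Rgs16 was listed at 0. With 0 of 14 cells, the share of such cells with a detected transcript could still be up to 23.2%. Rgs4 and Rgs5 are neighbours. On GRCm38, Rgs5 (ENSMUSG00000026678) lies on chromosome 1 from 169655501 to 169695813 on the plus strand, and Rgs4 (ENSMUSG00000038530) from 169741477 to 169747642 on the minus strand, 45.7 kb away. Rgs4 stayed at 0 in all 9 cells with clear Rgs5 apart from the 1 read in GL_M_91.

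Of the R12 members, Rgs10 was detected in 1 cell, Rgs12 in 2 and Rgs14 in none. Rgs10, a small member that acts on Gi-class subunits, had an RPKM of 50.2 in GL_M_36, from 326 reads, and was listed at 0 in the other 13. GL_M_36 is also the cell with the most detected genes, 5277. Rgs12, a large multidomain member, had 15.4 in GL_M_51 and 4.43 in GL_M_30, at most 0.057 in a further 2 cells and 0 in 10. Rgs12 shares 4.28% of its 50-base words with Gm43791, an antisense gene that overlaps it. Rgs14, which also binds Ras-family GTPases, the R7 member Rgs7 and the RZ member Rgs19 were listed at 0 throughout.

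Rgs2 and Rgs5 together made up 92.7% to 100% of the summed RPKM of the 10 members in 13 cells, and 11.8% in GL_M_51. The sum had a median of 1458 and ran from 19.9 in GL_M_51 to 3685 in GL_M_91. Rgs2 led in 10 cells, Rgs5 in 3 and Rgs12 in 1. In GL_M_75 Rgs5 was 50.5-fold above Rgs2, and in GL_M_30 and GL_M_55 it was 1.51-fold and 1.64-fold above. Both were clearly present in 9 cells, and Rgs2 without Rgs5 in 4, namely GL_M_11, GL_M_29, GL_M_85 and GL_M_94. No cell had Rgs5 without Rgs2 at this limit, and GL_M_51 had neither. Pearson's r between the log2 levels of Rgs5 and Rgs2 was 0.16 over the 14 cells. It was -0.19 without GL_M_51 and 0.36 without GL_M_75, the ends of the range with 1 cell left out.

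**Figure D2:**
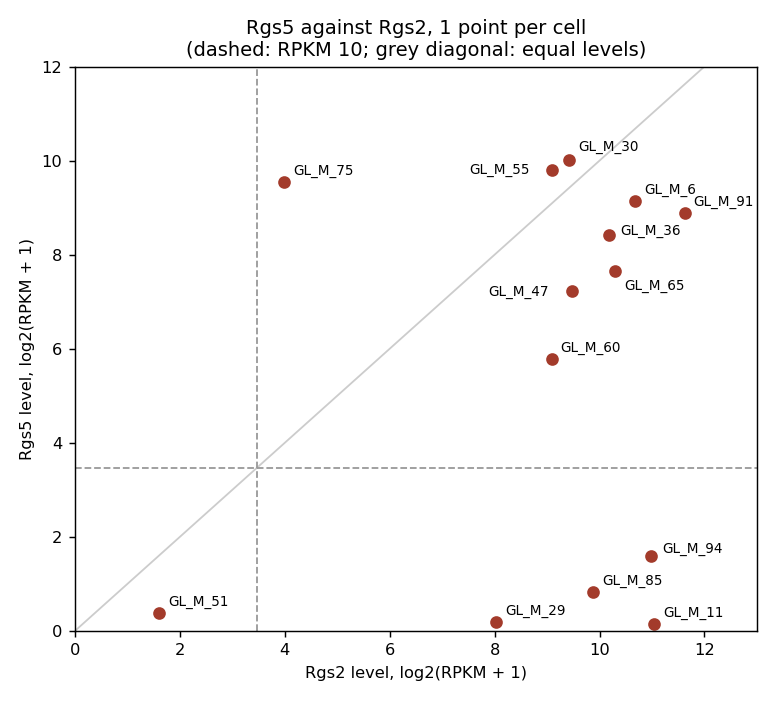
Level of Rgs5 against level of Rgs2, both as log2(RPKM + 1), 1 labelled point per cell; dashed lines mark an RPKM of 10 and the grey diagonal equal levels. In 9 cells both are above their line, in 4 only Rgs2 is, with Rgs5 at 2 RPKM or less, and GL_M_51 is low in both.

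Comparison of levels between genes depends on the length each was divided by. For genes with several transcripts, 52.8% to 57% of the values below 50 reads came out as whole reads with the mean length of the annotated transcripts. With all exons joined 4.39% to 5.54% did, and with the longest transcript 9.84% to 12.1%, the tolerance being 0.02 reads. The mean transcript length is 1256 bp for Rgs2 and 2410 bp for Rgs5, while their longest transcripts have 3021 bp and 4096 bp. Per length of the longest transcript the medians were 342 for Rgs2 and 102 for Rgs5. Rgs2 reached 10 in 12 cells and Rgs5 in 9. Rgs2, Rgs5 and Rgs12 then led in 10, 3 and 1 cells, as many as before.

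Of the 11 other genes named Rgs with a number, 3 were detected and 2 clearly present in some cell, near the 29.2% and 22.3% of all genes. Rgs13, an R4 gene known from B lymphocytes and mast cells, stood out and was singled out after its values were seen. It had an RPKM of 823 in GL_M_51, the cell with the lowest Rgs2, Rgs2 being at 2.05 there. Elsewhere Rgs13 was at most 0.345 and at 0 in 10 cells. In GL_M_51 all 10 macrophage and leukocyte markers were listed at 0, and so were the lymphocyte markers Cd3e, Cd79a and Ms4a1, with Cd3d at 5.2. The same cell had 3 of 12 podocyte markers clearly present (summed RPKM 536), whose part in the Rgs13 level was not tested. On chromosome 1, Rgs13 (144138654 to 144177372, minus strand) is the next protein-coding gene to Rgs2 (ENSMUSG00000026360, 143999338 to 144004161, minus strand), with 134 kb between them. Rgs1, Rgs21 and Rgs18 follow in the same cluster, with Rgs1 and Rgs18 at 0 in every cell and Rgs21 at most at 0.0906. Rgs17 had 11.8 in GL_M_47 alone. Rgs9, an R7 gene of photoreceptors and striatum, was low in most cells, above 0 in 13 and at most 1.57.

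**Figure D3:**
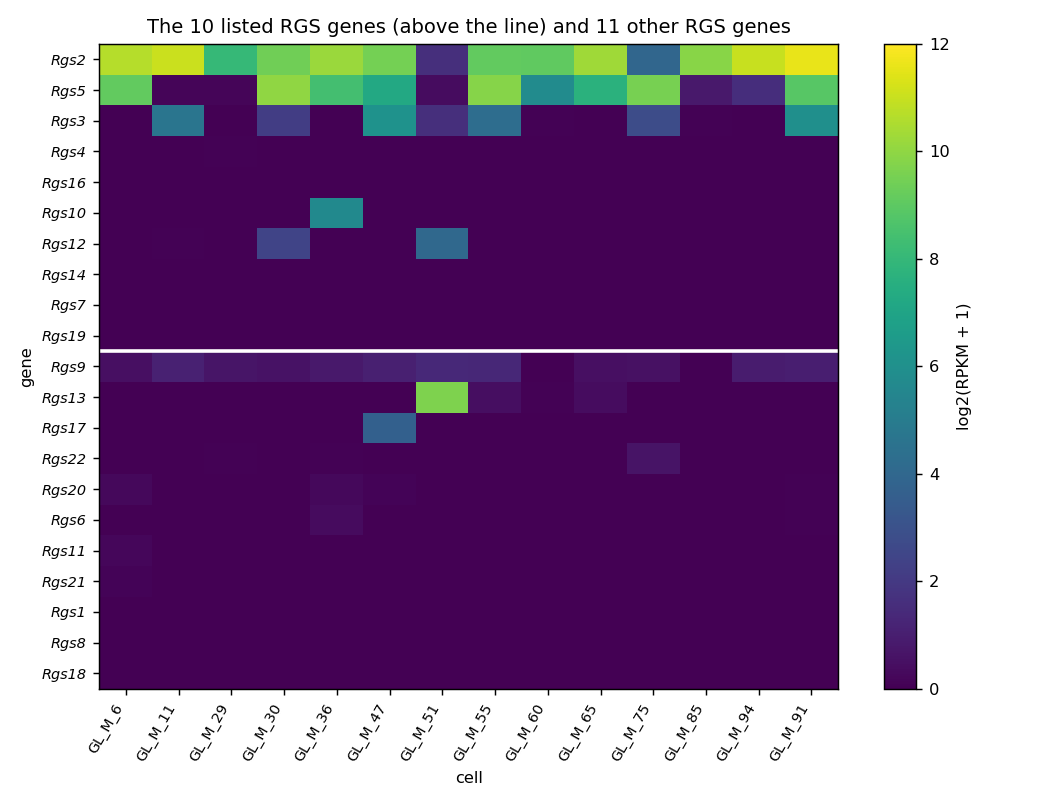
Heat map of log2(RPKM + 1) for the 10 listed RGS genes, above the white line, and 11 other RGS genes, below it, in the 14 cells. Rgs2 and Rgs5 fill most of the bright squares, and Rgs13 has a single bright square, in GL_M_51, where Rgs2 is dark.

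Of 15 G alpha genes, a family that includes the substrates of RGS proteins, 10 were detected and 4 clearly present in 4 or more cells. Over all genes these shares were 29.2% and 7.14%. Gnai2, the Gi subunit alpha 2, was clearly present in 9 cells, with a median of 41.1 and up to 893 in GL_M_60. Its r with Rgs5 was -0.56 (rho -0.64, -0.67 to -0.51 with 1 cell left out), picked as the farthest from 0 among the values of Rgs5 with Gnaq, Agtr1a, Prkg1, Gnai2, Gata3, Pdgfrb and the marker lists. Cells departed from it in both directions: Gnai2 was at 213 in GL_M_6 with Rgs5 at 562, and at 5.75 in GL_M_94 with Rgs5 at 2. Gnaq, the Gq subunit, was clearly present in 5 cells, at 156 in GL_M_36, 116 in GL_M_47, 746 in GL_M_55, 475 in GL_M_85 and 434 in GL_M_91. The lowest Rgs2 value of these 5 was 546, and Rgs2 reached that level also in 5 of the other 9 cells, with GL_M_60 just below at 543. The r of Rgs2 with Gnaq was 0.36. The closely related Gna11 was clearly present in 4 cells, 369 in GL_M_94 at most. Of the R7 partners Gnb5 was at 179 in GL_M_36 and undetected elsewhere, and Rgs7bp, Rgs9bp, Gpr158 and Gpr179 were undetected.

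Of 46 receptor genes 16 were detected and 5 clearly present in 4 or more cells, near the 29.2% and 7.14% of all genes. Calcrl, the receptor chain for adrenomedullin and CGRP, had a median of 375, F2r, the thrombin receptor, of 353, Agtr1a, the angiotensin II type 1a receptor, of 233, and S1pr3, a sphingosine 1-phosphate receptor, of 26. Agtr1a was at 1430 in GL_M_51, its highest cell, where Rgs2 and Rgs5 were at 2.05 and 0.305. In GL_M_55, where Agtr1a was lowest at 1.07, Rgs2 was at 546 and Rgs5 at 893. Over all 14 cells r with Agtr1a was -0.23 for Rgs2 and -0.30 for Rgs5, and these were 0.04 for Rgs2 without GL_M_51 and -0.12 for Rgs5 without GL_M_55. Of 13 effectors, the phospholipase C beta and adenylyl cyclase genes, 4 were detected, a share near the 29.2% of all genes, and 0 were clearly present in 4 or more cells, as 7.14% of all genes were. Adcy6 reached 88.2 in GL_M_55, Plcb4 41.3 in GL_M_36, Plcb3 3.34 in GL_M_65 and Plcb2 2.66 in GL_M_55.

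Of 15 other genes with an RGS homology domain 11 were detected, and 2 were clearly present in 4 or more cells, against 29.2% and 7.14% of all genes. Arhgef12, a guanine nucleotide exchange factor downstream of G12 and G13, was clearly present in 11 cells with a median of 54.9, and Grk4, a receptor kinase, in 11 with 24.6. A further list held genes that act on RGS proteins after translation. Rgs4, Rgs5 and Rgs16 are degraded through the N-degron pathway, in which Ate1 adds arginine and Ubr-type ligases recognise the protein, and Metap2 removes the initiator methionine. All 8 listed genes of RGS turnover were detected, 6 of them at a limit of 5, and 4 were clearly present in 4 or more cells. The same 29.2% and 7.14% of all genes stand beside the counts at the limits of 1 and 10. Ate1 had a median of 36.3, Metap2 of 11.3, Ubr1 of 10.5 and Ubr4 of 5.2. Fbxo44, part of a ligase for Rgs2, reached 1.48. Prkg1, the cGMP-dependent kinase that phosphorylates Rgs2, was clearly present in 6 cells with up to 97.1, and Prkg2 was listed at 0.

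**Figure D4:**
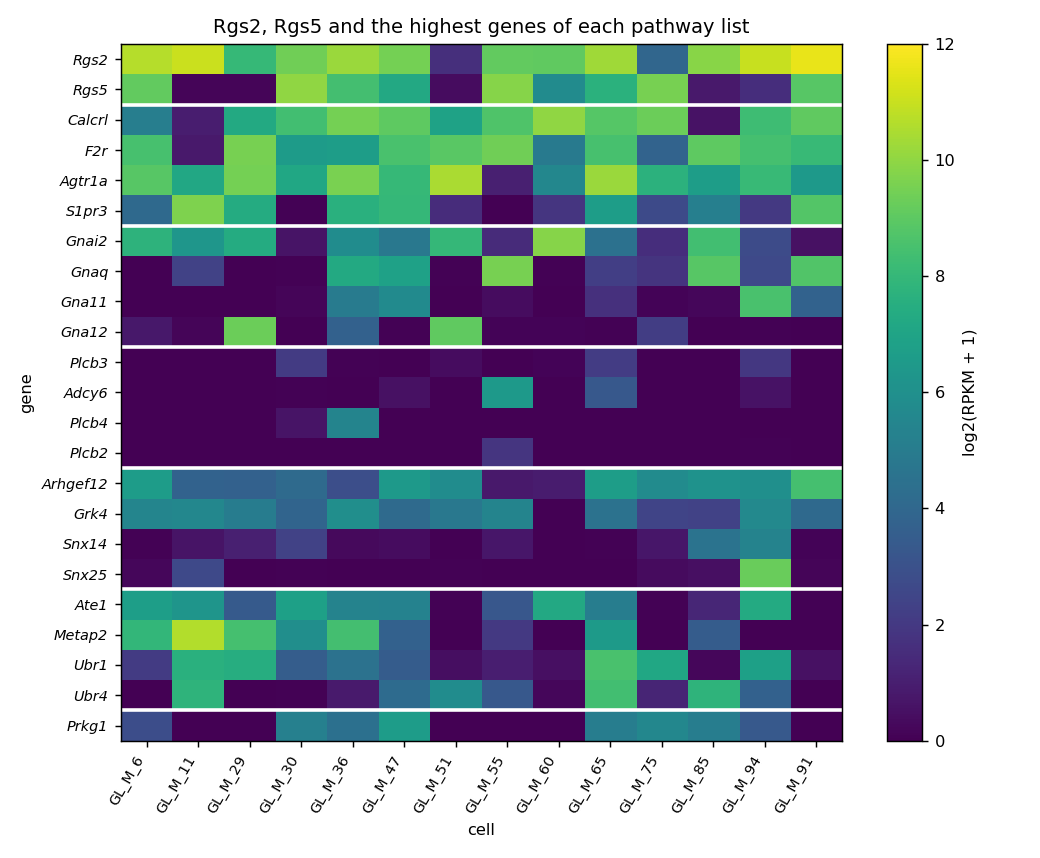
Heat map of log2(RPKM + 1) in the 14 cells for Rgs2 and Rgs5 and, in blocks from top to bottom, the highest receptors, G alpha subunits, effectors, genes with an RGS homology domain, genes of RGS turnover and Prkg1. Receptors such as Calcrl, F2r and Agtr1a are bright in most cells and Gnaq in 5, and the 4 effectors are each at 10 RPKM or more in 1 cell at most.

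The genes whose levels across the 14 cells were most like each member were sought among 2518 other genes clearly present in 4 or more cells. For Rgs5 the closest was Klf13, a zinc finger transcription factor, with Pearson's r of 0.93 and Spearman's rho of 0.83. Leaving out any cell kept r between 0.92 and 0.98. Klf13 was at 719 in GL_M_6, 1072 in GL_M_30, 229 in GL_M_36, 341 in GL_M_47, 962 in GL_M_55, 356 in GL_M_60, 637 in GL_M_65, 47.8 in GL_M_75 and 1592 in GL_M_91. It was 0.0591 in GL_M_11, 0.103 in GL_M_29, 1.35 in GL_M_51, 0.973 in GL_M_85 and 1.05 in GL_M_94. These are the same 9 and 5 cells as for Rgs5. Leaving out 1 cell keeps this split, so the range of r cannot show whether levels within the 9 were alike. Likeness within the 9 was not tested. Of 169 other genes clearly present in exactly 9 cells, Klf13 alone had the 9 of Rgs5, a count added after the values were seen. Gm16211 (0.83) and Itga8, an integrin chain of the mesangium (0.80), came next, and the median r of all 2518 genes with Rgs5 was 0.05.

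**Figure D5:**
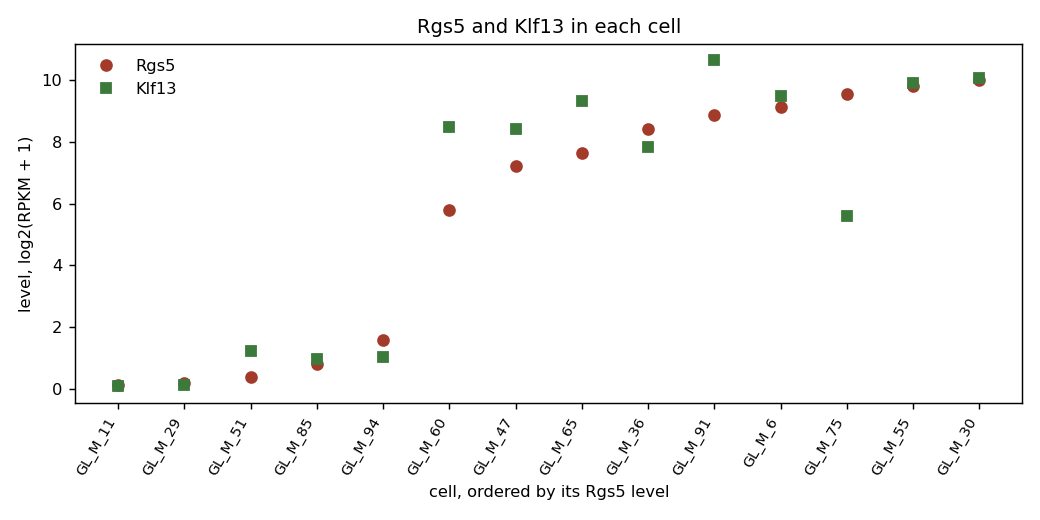
Levels of Rgs5 (circles) and Klf13 (squares) as log2(RPKM + 1) in each of the 14 cells, ordered by Rgs5. Both are at 2 RPKM or less in the same 5 cells and at 47.8 or more in the same 9.

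For Rgs2 the closest genes were Igfbp7, an insulin-like growth factor binding protein, at 0.88, Spry2, an inhibitor of receptor tyrosine kinase signals, at 0.83 and Rps14 at 0.79. Spearman's rho was 0.51 for Igfbp7, 0.64 for Spry2 and 0.40 for Rps14. Without GL_M_51, where Igfbp7 was at 3.56 and Rps14 at 0.359, r was 0.72 for Igfbp7 and 0.42 for Rps14. For Spry2 it was 0.82 or more whichever cell was left out. Spry2 was low in both cells with low Rgs2, at 22.3 in GL_M_51 and 2.4 in GL_M_75, against 116 or more in the other 12. Leaving out 1 cell keeps GL_M_51 or GL_M_75 in the set, so it cannot show whether r holds over those 12. For Rgs3 the closest were Arid4a at 0.90, Rasl11b at 0.74 and Fam161a at 0.72. All these values were picked as the highest of 2518 in 14 cells that share 1 animal, and they describe these cells only.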

How the data were processed

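The 14 samples are single cells of 1 mouse, all in 1 group by their source label. The file holds RPKM values that the authors made and deposited, 1 column per cell, and all columns matched a cell title. TopHat2 2.0.12, HTSeq 0.6.1 and build mm10 are named per the submitters' processing notes. The sources used here do not give the annotation release, the handling of reads with several places, or any selection of cells. Gene IDs were matched to symbols and places in GENCODE M21 on GRCm38, the assembly mm10 denotes, for 34488 of 35271 genes.

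The members and gene lists were chosen with earlier results of these data known. The rule for named genes took all 10 members, up to 4 of the highest genes by median per pathway list, the nearest protein-coding gene on each side, and the 3 genes most like each member clearly present in 4 or more cells. Other names were chosen after their values were seen. Lists held other RGS genes, RGS homology proteins, R7 partners, G alpha subunits, effectors, receptors, RGS turnover and cGMP kinases, with markers of 8 cell types.

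Read totals were recovered from 14953 genes with 1 transcript, where 84.7% to 89.7% of values below 50 reads were whole within 0.02. On simulated whole reads all 14 totals came back within 0.1 percent. At the mean transcript length, reads of RGS genes up to 1000 were whole within 0.05 except for Rgs6, Rgs12 and Rgs22, whose reads are not given. Larger numbers were not judged. Logarithms were taken of RPKM plus a pseudocount of 1, written log2(RPKM + 1), and fold differences of low genes are understated on that scale. Exact intervals and floors cover counting or sampling of cells only, because reads of amplified cDNA are not independent molecules. Shared sequence was the share of 50-base words found in transcripts of other genes, on either strand. Whether counting used strand is not given. Promoters are from RefSeq and matched 9 of 10 members. Alternatives covered detection limits, rescaling, recovered reads, the pseudocount, the rank correlation and leaving out cells. A few genes of the marker lists and neighbours are not reported here. Python 3.11.15, pandas 2.3.3, numpy 2.4.6 and scipy 1.17.1 were used.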

Additional observations from a re-analysis of the deposited data

How the results depend on the processing

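Of 182 alternative values 20 moved beyond the limits set for a change, which were 1.5 times for a count, 1 SD for the summed level and 0.1 for r. With at least 50 recovered reads in place of an RPKM of 10, Rgs3 was present in 7 cells and Rgs12 in 2, and Rgs12 was present in 0 at a limit of 20 or per length of the longest transcript. The recovered reads of Rgs12 did not come out whole, so its count by reads is approximate. Without GL_M_30 and GL_M_55, Rgs5 led in 1 cell. With all 21 RGS genes compared, Rgs13 led in 1 cell and Rgs12 in 0. Per length of the longest transcript the median sum of the members was 676, against 1458. With every cell rescaled to the same total RPKM the median sum was 2601, which is counted among the 20. That total was set above the summed RPKM of all genes in every cell, so each value rose by construction. The value of 2601 is therefore in another unit than 1458 and cannot show a dependence on the processing. The comparisons over 21 genes and per longest transcript were chosen after seeing the data. Between Rgs3 and Rgs2, r was -0.09 with a pseudocount of 0.1, and -0.09 to 0.12 over the cells left out in turn. Between Rgs5 and Rgs2, Spearman's rho was -0.02, and r was -0.19 to 0.36 over the cells left out. Between Rgs5 and Rgs3 it was 0.16 to 0.43. Leaving out 1 cell gave 2 to 3 members clearly present in 4 or more cells, 2 being the count without GL_M_11, GL_M_47, GL_M_55 or GL_M_91, since Rgs3 reached the limit in those 4 cells. For any value above 0 the detected genes were 8 of the other RGS genes, 3 of the R7 partners, 11 of the effectors and 30 of the receptors, and 2 effectors at a limit of 5. Causes were not tested. No paired analysis was possible because there is 1 group. An RPKM below 0.126 to 0.455 is under 3 reads on 1 kb, depending on the cell, so presence below that is not resolved.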

Other observations

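Rgs3 also had a gene present in exactly its cells. Arid4a, a chromatin-associated protein, was the 1 gene of 677 others clearly present in exactly 4 cells that shared the 4 of Rgs3, at 24.1 in GL_M_11, 73.8 in GL_M_47, 27.9 in GL_M_55 and 32.6 in GL_M_91. Of 72 other genes clearly present in exactly 13 cells, 12 lacked the same cell as Rgs2, GL_M_51. They were Col4a1, a basement membrane collagen chain, Ets1, Fth1, Ifitm3, Igfbp7, Iqgap1, Lmo7, Maf, Nbeal1, Nfia, Rps14 and Selenok. These counts were added after the values were seen. GL_M_51 had 1894 detected genes, where cells ran from 1770 to 5277. How many of the 72 lacked each other cell is not given here, so the 12 cannot be set against a background.

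Some genes next to the members on the chromosome are given here as values. Uchl5, 192 kb from Rgs2 on the other side than Rgs13, was clearly present in 2 cells, with up to 162 in GL_M_36. Nuf2, 124 kb from Rgs5, was clearly present in 0, with up to 4.37 in GL_M_94. Beside Rgs10, BC017158 was clearly present in GL_M_36 alone, at 94, and Tial1 in 8 cells with its highest value, 712, in GL_M_36. That is the only cell with Rgs10, and also the cell with the most detected genes, 5277.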
